A study of Mus musculus with 4 samples.

Results

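The enzymes that make heme were examined in RNA-seq of mouse retinas at E13.5, a stage given in days of embryonic life. The 8 genes, Alas1, Alas2, Alad, Uros, Urod, Cpox, Ppox and Fech, were taken by name from a table of 24062 genes, and all 8 were among the 15762 genes with enough reads to be tested. They were chosen for their place in the pathway, though earlier results of these data were known. The comparison was of 4 libraries, 2 of wildtype retinas and 2 of Nrf1 mutant (Nrf1 f/f;Six3-Cre) retinas. All 4 came from mice of a mixed C57BL/6 129 background, with no further allele or agent named in the labels. In the mutant, both copies of Nrf1 carry a floxed exon, and the Six3-Cre transgene removes it in retinal progenitor cells. Red blood cells, vessels and macrophages in the dissected tissue do not descend from these progenitors. Each library was made from retinas pooled over several embryos, so the spread between 2 libraries is the spread between pools. The paper describes Six3-Cre as active first in the central retina, and Nrf1 protein as lost there. Retinas were pooled, so the share of their cells that kept Nrf1 is not known here. The comparison asks how the RNA of each enzyme differed in retinas of this mutant.

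Heme is a ring-shaped porphyrin that holds iron, and it is the working group of hemoglobin, of the cytochromes of the respiratory chain and of many other enzymes. Its synthesis begins in the mitochondrion, where aminolevulinic acid synthase joins glycine to succinyl-CoA. It goes on in the cytosol through steps that include those of Alad, Uros and Urod, and ends in the mitochondrion with Cpox, Ppox and Fech. The first step has a pair of genes. Alas1 serves nearly all cells and is held down by heme itself, and Alas2 serves red blood cell precursors, where its translation follows the supply of iron. Nrf1 (nuclear respiratory factor 1) is a transcription factor that binds a GC-rich palindrome in the promoters of many nuclear genes of mitochondria.

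Promoter sequence is shown for Alas1 and Alas2, with Uros as the other gene with an Nrf1 motif, since the first step is where the ubiquitous and the erythroid gene part. RefSeq promoter windows on the build GRCm38.p6, from 250 bases before to 50 after a start site, were matched for 7 of the 8 enzymes, 10 windows in all. The core Nrf1 motif GCGCANGCG, searched on both strands, was found in 3 of these 10 windows, both of Alas1 and 1 of Uros. The windows of Alas1 overlap, so they hold the same matches. The motif occurs in 2053 of all 32851 mouse windows, 6.25%. The GATA motif AGATAA, the recognition site of the erythroid factor Gata1 and its relatives, was found in 2 of the 10 windows, those of Alas2 and Cpox, and in 11.18% of all windows. The windows of Alad, Urod and Ppox held neither string. The stretches around 3 of these matches are printed with the motif in capitals, on the strand of the gene.
Alas1, chr9:106247906-106247935, minus strand: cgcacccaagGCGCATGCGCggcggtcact
Uros, chr7:133709323-133709352, minus strand: cggtcacactgCGCCTGCGCgagtcccgcc
Alas2, chrX:150547297-150547374, plus strand: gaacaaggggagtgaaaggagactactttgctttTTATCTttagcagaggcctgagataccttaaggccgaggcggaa
In Alas1 the capitals hold a pair of overlapping matches, 1 on each strand, 186 to 195 bases before the start at 106247730 and inside the transcribed region of a start farther upstream. A further match of Alas1 lies 215 to 223 bases before that start. The match of Uros lies 38 to 46 bases before its start at 133709295, at the edge of the first exon of Bccip, which is transcribed in the opposite direction. The GATA match of Alas2 lies 81 to 86 bases before its RefSeq start at 150547417 and upstream of the annotated gene. A match to these letters is a description of the sequence and no evidence of binding.

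Of the 8 heme enzymes, Alas2 alone passed the threshold used here, a fold change of at least 1.4 with a Benjamini-Hochberg adjusted p of at most 0.2 in the quasi-likelihood test of edgeR. It rose in the mutant retinas. That is 1 of 8 called higher, where 12.8% of all tested genes were called higher. None of the 8 was called lower, against 8.04% of all tested genes. None was called lower by DESeq2, by edgeR's exact test or by limma on the deposited normalized values either, although at an unadjusted p under 0.05 in edgeR 2 of the 8 were lower and 2 higher, where 16.9% and 17.9% of all tested genes were. When the minimum fold was dropped and the adjusted p of at most 0.2 kept, 2 members were lower, Alas1 and Uros, and 2 were higher, Alas2 and Fech. Uros no longer passed that rule in edgeR without the second wildtype library (adjusted p = 0.361) or the second mutant library (adjusted p = 0.268), and Fech without the first wildtype library (adjusted p = 0.490) or the first mutant library (adjusted p = 0.301). Among all tested genes, 19.5% were lower and 20.4% higher by that rule. The median log2 fold change of the 8 enzymes was 0.12, and that of all tested genes was 0.00073. The median size of the change, whatever its sign, was 0.26 for the enzymes and 0.22 for all tested genes.

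**Figure D1:**
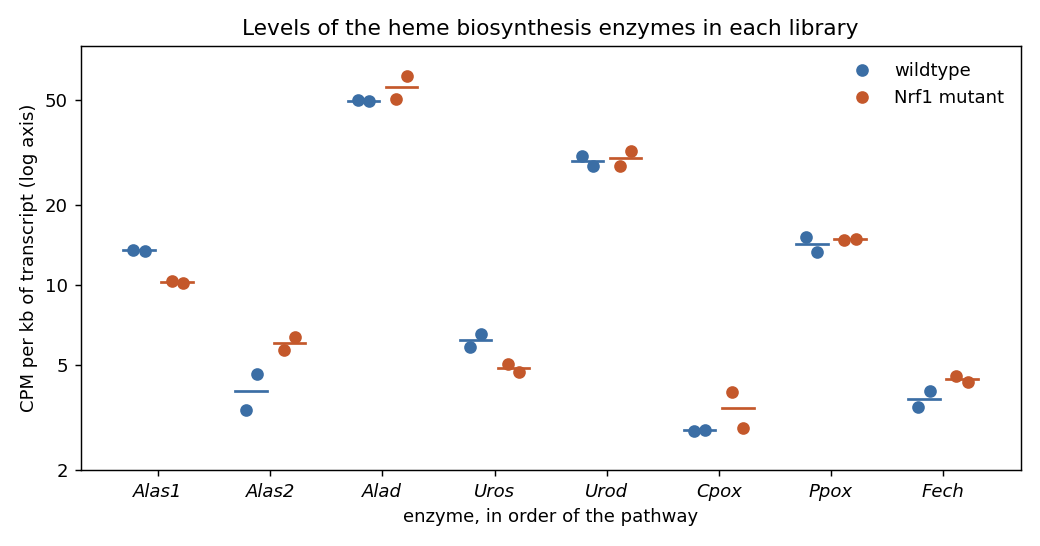
Level of each heme enzyme in each library, in CPM (reads scaled to library size) per kilobase of transcript on a log axis, with enzymes in the order of the pathway. Points are single libraries and horizontal bars the mean of the 2 libraries of a genotype; the mutant points of Alas1 and Uros lie below and those of Alas2 above the wildtype points, and those of Urod and Ppox overlap.

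Alas1, the ubiquitous first enzyme (chromosome 9 of GRCm38, 106233455 to 106248654), had 4055 and 3385 wildtype reads, against 2916 and 2863 mutant reads. After scaling for library size with TMM factors its level was 46.3 and 45.6 CPM in wildtype and 35.1 and 34.6 CPM in mutant retinas. Both mutant libraries lay well below both wildtype libraries, and the libraries of a genotype lay close together. The means were 46.0 ± 0.470 and 34.8 ± 0.350 CPM (SD, n = 2), so the mutant stood at 75.8% of wildtype. The log2 fold change was -0.40 (standard error, SE, 0.079; edgeR adjusted p = 0.00695), a 1.32-fold difference that passed the p but not the minimum fold. It stayed within -0.41 to -0.39 whichever library was left out. In bulk RNA such a value cannot tell fewer cells of a type from less RNA per cell. The nearest annotated overlap of Alas1 is the antisense gene 4930500F10Rik, which shares 465 bases (7.532%) of its exons.

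Alas2, the erythroid first enzyme (chromosome X, 150547375 to 150570638), had 603 and 695 wildtype reads, against 967 and 1069 mutant reads. This is 6.88 and 9.37 CPM against 11.6 and 12.9 CPM, and the genotypes did not overlap. The mean of 8.13 ± 1.76 CPM in wildtype rose to 12.3 ± 0.906 CPM (SD, n = 2), a log2 fold change of 0.60 (SE 0.17; edgeR adjusted p = 0.0337). The size of the rise depended on the first wildtype library, the lowest of the 4. Without that library the log2 fold change was 0.39 (adjusted p = 0.172 in edgeR), below 1.4-fold, and without the second wildtype library it was 0.84. On the deposited normalized values, tested with limma, it was 0.40, also below 1.4-fold. Exons of Alas2 share 311 bases (12.942% of their length) with Apex2 on the opposite strand, and whether the counting used strand is not given in the sources used here. Apex2 itself had 1093 and 1298 wildtype reads, against 1343 and 1352 mutant reads, a log2 fold change of 0.12 (adjusted p = 0.652 in edgeR).

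The pair of first enzymes thus lay on opposite sides of wildtype. Per read of Alas1 there were 0.149 and 0.205 reads of Alas2 in wildtype and 0.332 and 0.373 in mutant libraries. Per length of transcript, Alas2 made up 19.9% and 25.5% of the RNA of both genes in wildtype and 35.6% and 38.4% in mutant retinas. Alas1 remained the more abundant of the pair in every library.

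**Figure D2:**
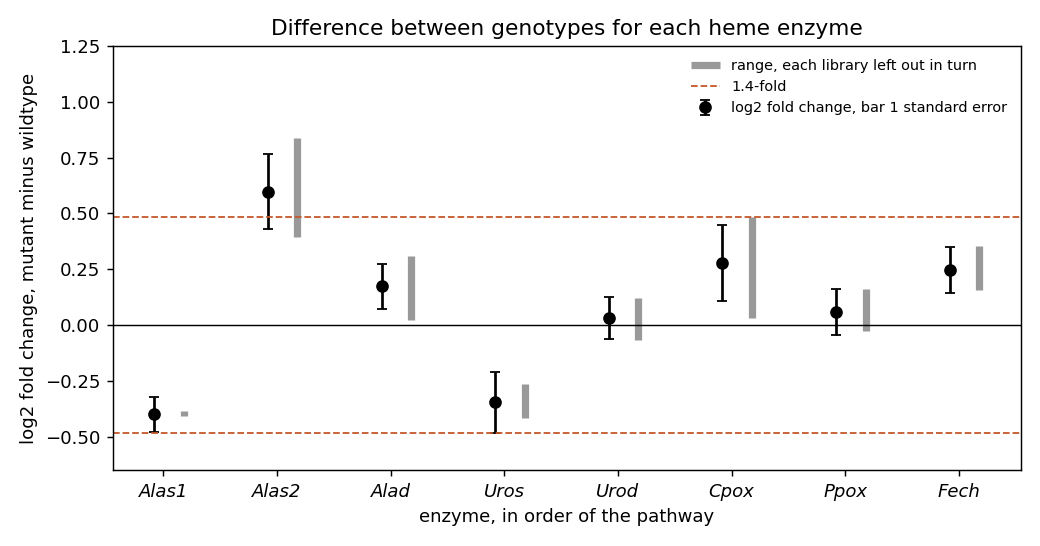
Log2 fold change of each enzyme, mutant minus wildtype, with a bar of 1 standard error, and beside it in grey the range when each of the 4 libraries is left out in turn. Dashed lines mark 1.4-fold; Alas2 at 0.60 is the 1 point beyond them, Alas1 at -0.40 has the narrowest grey range, and the ranges of Urod and Ppox span 0.

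The cytosolic enzymes did not pass the threshold. Alad, which joins aminolevulinic acid into porphobilinogen (chromosome 4, 62509169 to 62519918), had 62.1 and 61.9 CPM in wildtype and 63.1 and 76.7 CPM in mutant libraries. The mutant values lie above wildtype, the lower of them by little, and the log2 fold change was 0.17 (SE 0.099; edgeR adjusted p = 0.258). It was 0.31 without the first mutant library (edgeR adjusted p = 0.0168) and 0.02 without the second (edgeR adjusted p = 0.906), below 1.4-fold in both. Uros, which closes a chain of porphobilinogen units into a ring (chromosome 7, 133686243 to 133710072), had 10.3 and 11.5 CPM in wildtype and 8.85 and 8.30 CPM in mutant libraries. Both mutant libraries were below both wildtype libraries, with a log2 fold change of -0.35 (SE 0.14; edgeR adjusted p = 0.103), a 1.27-fold difference short of the minimum fold. Its neighbour Bccip, whose exons share no base with those of Uros, had a log2 fold change of 0.04. Urod, which trims the side chains of the ring (chromosome 4, 116989965 to 116994413), had 45.9 and 41.8 CPM in wildtype and 42.0 and 47.7 CPM in mutant libraries. The genotypes overlapped, with a log2 fold change of 0.03 (SE 0.094).

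The last 3 enzymes act in the mitochondrion, and none of them passed the threshold. Cpox, which makes protoporphyrinogen (chromosome 16, 58670292 to 58717636), had 8.69 and 8.82 CPM in wildtype and 12.3 and 8.96 CPM in mutant libraries. The first mutant library was high and the second barely above wildtype, and the log2 fold change of 0.28 (SE 0.17; edgeR adjusted p = 0.286) became 0.03 without the first mutant library and 0.48 without the second. Ppox, which oxidizes protoporphyrinogen (chromosome 1, 171275990 to 171281186), had 27.7 and 24.3 CPM in wildtype and 27.0 and 27.3 CPM in mutant libraries. Its genotypes overlapped, with a log2 fold change of 0.06 (SE 0.10). Ppox shares 791 bases of exon (17.519%) with B4galt3 on the opposite strand, which had a log2 fold change of -0.04. Fech, ferrochelatase, which puts iron into the ring (chromosome 18, 64452914 to 64490251), had 22.8 and 26.1 CPM in wildtype and 29.8 and 28.2 CPM in mutant libraries. Each mutant library stood above each wildtype library, with a log2 fold change of 0.25 (SE 0.10; edgeR adjusted p = 0.126), short of the minimum fold, and within 0.16 to 0.35 whichever library was left out.

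In 4 of the 8 enzymes, Alas2, Alad, Cpox and Fech, each mutant library lay above each wildtype library, where 30.9% of all tested genes did so. In 2, Alas1 and Uros, both lay below, where 31.6% of all tested genes did so. Groups that do not overlap were thus common among all genes, and these counts are not read as a property of the enzymes.

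The levels of different enzymes were compared only per length of the longest RefSeq-linked transcript. In wildtype retinas Alad was highest at 49.7 ± 0.106 CPM per kilobase (SD, n = 2), followed by Urod at 29.5 ± 1.97, Ppox at 14.3 ± 1.32 and Alas1 at 13.52 ± 0.138. Uros stood at 6.19 ± 0.467, Alas2 at 3.99 ± 0.862, Fech at 3.72 ± 0.360 and Cpox at 2.83 ± 0.0292 CPM per kilobase. The wildtype libraries of Ppox and Alas1 overlapped, as did those of Alas2 and Fech, and the other neighbours in this order did not. In mutant retinas the order was the same, except that Alas2, at 6.03 ± 0.445 CPM per kilobase, stood above Uros at 4.87 ± 0.218. The order of such neighbours rests on the length chosen. Uros has 1762 bases in the transcript used and 3576 over all annotated exons, and Alas2 has 2037 and 2403. Alas1, at 10.3 ± 0.103 CPM per kilobase, no longer overlapped with Ppox at 14.9 ± 0.114. The plot of levels by library shows this order as a span of more than 10-fold within the pathway.

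Red blood cells were present in every library, and part of their genes rose in the mutant beside Alas2. Of 24 erythroid genes, 17 could be tested, and 8 of them rose, where 12.8% of all tested genes did. At an adjusted p of at most 0.05 the number was 3, where 9.17% of all tested genes passed, and it was 2 when the fold itself was tested against 1.4, where 7.54% passed. Of the 8 called, the most changed were Sptb, Ermap, Epor, Kel, Trim10 and Klf1, with log2 fold changes of 3.11, 1.83, 1.52, 1.46, 1.16 and 0.90. Sptb is a spectrin of the red cell skeleton, Epor the erythropoietin receptor and Klf1 an erythroid transcription factor. With 1 library left out, the log2 fold change of Epor stayed between 1.4 and 1.66, while its call was lost without the second wildtype library or either mutant library (edgeR adjusted p between 0.231 and 0.320). The sizes of Kel, Trim10 and Klf1 moved more. Kel and Trim10 lost their calls without the second wildtype or the first mutant library, and Klf1 without either wildtype library or the second mutant library. Kel, with 56 and 16 wildtype reads, had 2.46 without the first and 0.90 without the second wildtype library, Trim10 had 0.78 without the second wildtype library, and Klf1 had 0.56 without the second mutant library. The median of the 17 was 0.80. Without the first or the second wildtype library 6 and 3 of them were called, without the first or the second mutant library 4 and 6, and on the deposited normalized values 1. Sptb, with a wildtype mean of 9.33 CPM, and Car2 are also expressed in neural tissue. The summed level of the list without both was 568 and 666 CPM in wildtype and 740 and 733 CPM in mutant libraries, and without the globins as well it was 14.1 and 13.3 CPM against 25.6 and 21.8 CPM. Hba-a1, Hbb-bt, Hbb-b1, Hbb-b2 and Car1 were at 0 in all 4 libraries. The adult globin genes have near-identical copies, so their counts are uncertain.

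The embryonic globins, chosen for display after their values were seen, carried most erythroid reads. Hbb-y had 41387 and 41172 wildtype reads, against 50614 and 50760 mutant reads, a log2 fold change of 0.25 that did not pass the minimum fold (adjusted p = 0.092 in edgeR). Hba-x had a log2 fold change of 0.18 and Hbb-bh1 of 0.22. Slc4a1, the anion exchanger of the red cell membrane, likewise chosen after its values were seen, had 793 and 628 wildtype reads, against 1160 and 1059 mutant reads and rose with a log2 fold change of 0.61, close to that of Alas2. Per 1000 reads of Hbb-y there were 14.6 and 16.9 reads of Alas2 in wildtype and 19.1 and 21.1 in mutant libraries, which do not overlap. Per read of Slc4a1 there were 0.760 and 1.11 reads of Alas2 in wildtype and 0.834 and 1.01 in mutant libraries, which do. The part of red blood cells in the value of Alas2 was not tested beyond these ratios.

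**Figure D3:**
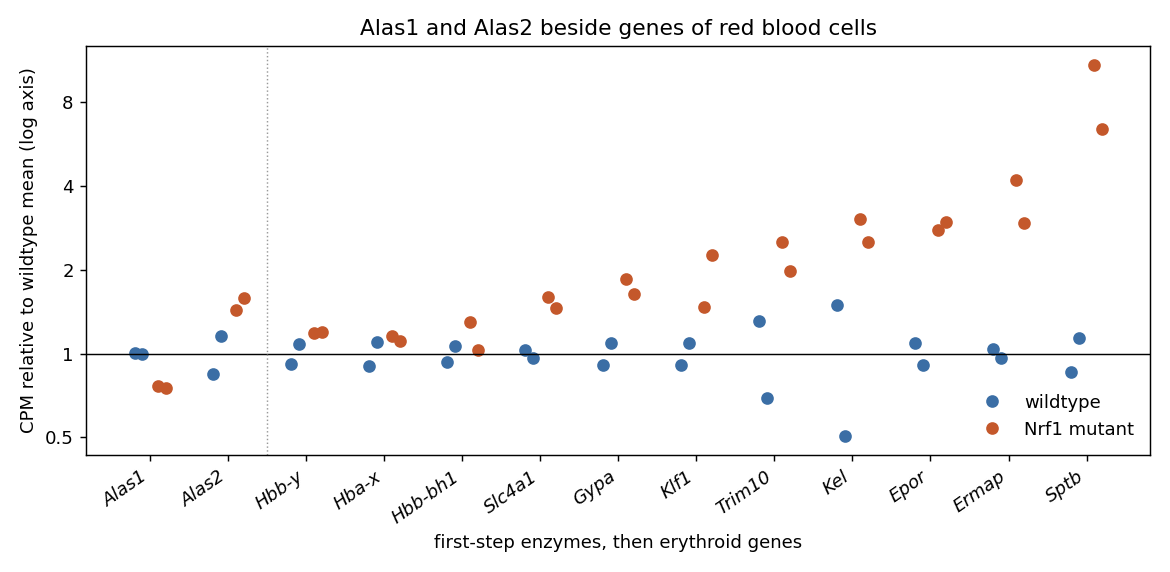
Level of Alas1, Alas2 and erythroid genes in each library relative to the wildtype mean of the gene, on a log axis in steps of 2-fold. Alas1 lies below 1 in both mutant libraries; Alas2 in mutant libraries lies above the embryonic globins Hbb-y, Hba-x and Hbb-bh1, near Slc4a1 and below Ermap and Sptb.

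Other facts of these libraries bear on the pathway as a whole. Depth was 74577660 to 85933945 reads on genes. Nrf1 had 9052 and 7789 wildtype reads, against 8594 and 8284 mutant reads (log2 fold change -0.03), and a count over the whole gene cannot show the loss of 1 exon. Retina markers were high, with means of 43.6 to 656 CPM. Among the 8 of them Pou4f2, a gene of ganglion cells, was called lower, where 8.04% of all tested genes were. Markers of other tissues were higher in the mutant. For comparison, 12.8% of all tested genes were called higher. All 10 macrophage genes, all 6 lens genes and all 5 tested pigment epithelium genes rose, as did 5 of 7 endothelial and 4 of 6 periocular genes (2 without the second wildtype library). The summed macrophage level was 84.4 and 78.8 CPM in wildtype and 263 and 315 CPM in mutant libraries, and the summed lens level 123 and 332 CPM against 7020 and 2832 CPM. Rpe65 had 4 reads in the second wildtype library and 0 in the others, and was not tested, and Kdr was called lower. The part of these cells in the values of the heme enzymes was not tested. When their marker genes were left out of the scaling, the log2 fold change of Alas1 was -0.40 and that of Alas2 0.60.

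Around the pathway, 1 of 10 genes of precursor supply was called higher and 1 lower, near the 12.8% and 8.04% of all tested genes. Slc6a9, a glycine transporter of the cell membrane, rose from 9.54 ± 0.288 to 19.0 ± 2.85 CPM (SD, n = 2; log2 fold change 0.99, adjusted p = 0.0011 in edgeR). Shmt2, the mitochondrial enzyme that interconverts serine and glycine, fell from 203 ± 11.5 to 123 ± 0.591 CPM (log2 fold change -0.72, adjusted p = 0.00034 in edgeR). The other 8, which include the mitochondrial glycine carrier Slc25a38 (0.04) and the subunits that make and use succinyl-CoA, had log2 fold changes between -0.14 and 0.20.

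Among 15 carriers of heme and porphyrins, 2 rose, a share near the 12.8% of all tested genes called higher. At an adjusted p of at most 0.2 and any fold, 5 were higher and 1 lower, where 20.4% and 19.5% of all tested genes were. Mfsd7c, also named Flvcr2, had a log2 fold change of 0.85 at only 39 to 98 reads per library (adjusted p = 0.192 in edgeR), a call lost whenever any 1 library was left out, with log2 fold changes between 0.65 and 1.10 and adjusted p between 0.223 and 0.447. Hebp1, a heme-binding protein, rose with a log2 fold change of 0.58 (adjusted p = 0.0296 in edgeR). The median of the list was 0.13, close to the 0.12 of the enzymes. Abcb10, a mitochondrial carrier needed for heme synthesis in red cell precursors and singled out after its values were seen, had 28.2 ± 0.501 CPM in wildtype and 20.5 ± 3.09 CPM in mutant libraries. Its log2 fold change of -0.46 (adjusted p = 0.0235 in edgeR) lay just short of 1.4-fold. Without the first mutant library it was -0.62 and was called lower (adjusted p = 0.00118 in edgeR). Mfsd7b, the heme exporter also named Flvcr1, had a log2 fold change of 0.44 (adjusted p = 0.0103 in edgeR) and was called higher without the second mutant library (0.49).

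Heme breakdown had the highest median of the 7 lists plotted around the enzymes, 0.58, and 2 of its 4 genes were called, both higher, where 12.8% of all tested genes were. Hmox1, the inducible heme oxygenase, had 753 and 757 wildtype reads, against 1536 and 1658 mutant reads, so both mutant libraries stood well above wildtype. Its mean rose from 9.40 ± 1.14 to 19.3 ± 1.10 CPM (SD, n = 2; log2 fold change 1.04, adjusted p = 0.000699 in edgeR). Blvra, a biliverdin reductase that takes up the product of heme oxygenase, rose from 1.37 ± 0.231 to 2.33 ± 0.220 CPM (log2 fold change 0.77, adjusted p = 0.104 in edgeR). Without the first wildtype library or without the second mutant library the log2 fold change of Blvra was 0.61 and 0.66, still above 1.4-fold, and its call was lost (adjusted p = 0.321 and 0.312 in edgeR). Hmox2, the constitutive heme oxygenase, had 61.4 and 55.5 CPM in wildtype and mutant means (log2 fold change -0.15), and Blvrb had a log2 fold change of 0.40, and neither was called. Macrophages, which express Hmox1, gave higher marker levels in the mutant as stated, and their part in the level of Hmox1 was not tested.

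No gene of heme a and cytochrome assembly was called in edgeR, where 12.8% of all tested genes were called higher and 8.04% lower. None of the 8 had an unadjusted p under 0.05 there, where 17.9% of all tested genes were higher and 16.9% lower. The log2 fold changes of the 8 lay between -0.11 and 0.19. The 2 with the highest CPM, which takes no account of length, were Sdhd and Sdhc, membrane subunits of succinate dehydrogenase, which had log2 fold changes of -0.04 and -0.11.

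Of 19 tested genes of iron supply and storage, 3 rose, a share near the 12.8% of all tested genes, and all 3 had few reads or low levels. At an adjusted p of at most 0.2 and any fold, 10 were higher and 1 lower, where 20.4% and 19.5% of all tested genes were. Steap3, an iron reductase of endosomes, had 20 and 43 wildtype reads, against 110 and 88 mutant reads (log2 fold change 1.57). Its change lay between 1.04 and 2.38 with 1 library left out, and its call was lost without the first wildtype library (adjusted p = 0.240 in edgeR) or without the first mutant library (adjusted p = 0.215 in edgeR). Slc40a1, ferroportin, the exporter of iron, rose from 2.76 ± 1.24 to 6.89 ± 0.423 CPM (SD, n = 2; log2 fold change 1.31), and Slc39a8, a metal importer, had a log2 fold change of 0.70. The genes named next were singled out after their values were seen, and none of them was called. Tfrc, the transferrin receptor, had a log2 fold change of 0.11, the ferritin genes Fth1 and Ftl1 had 0.26 and -0.04, and the mitochondrial iron importers Slc25a37 and Slc25a28 had 0.30 and -0.02.

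The 15 genes of iron-sulfur cluster assembly, which share mitochondrial iron with Fech, included 2 called higher and 1 called lower, near the 12.8% and 8.04% of all tested genes. At an adjusted p of at most 0.2 and any fold, 2 were higher and 5 lower, where 20.4% and 19.5% of all tested genes were. Nfu1, a late carrier of clusters, fell from 16.6 ± 0.363 to 8.74 ± 1.02 CPM (SD, n = 2; log2 fold change -0.93, adjusted p = 0.00128 in edgeR). Nfs1, the cysteine desulfurase, rose with a log2 fold change of 0.49, at the edge of 1.4-fold, and it lost its call without the second wildtype library (0.39) or without the second mutant library (0.44). Fdx1l, a ferredoxin, rose with a log2 fold change of 1.22 at 23 to 65 reads per library, and lost its call whenever 1 library was left out (edgeR adjusted p between 0.231 and 0.492), while its log2 fold change stayed between 1.02 and 1.44. The median of the list was -0.02.

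A list of 15 genes known to act on the aminolevulinic acid synthases or to share their regulation was tested. At an adjusted p of at most 0.2, any fold, 7 were higher and 1 lower, where 20.4% and 19.5% of tested genes were. With the minimum fold 4 rose, where 12.8% of all tested genes did. They were Ppargc1b and Ppargc1a, coactivators of Nrf1 of which the latter is known to raise Alas1 in liver, with log2 fold changes of 0.96 and 0.80, and Mafk, a small Maf protein that pairs with the heme sensor Bach1, and Foxo1, with 0.65 and 0.49. The call of Foxo1 was lost without the second wildtype library (0.40) or without the first mutant library (0.32). Ppargc1a had 669 and 489 wildtype reads, against 1025 and 1031 mutant reads. Alas1 was lower in the same libraries. Bach1 itself had a log2 fold change of -0.02, and the repressors Nr1d1 and Nr1d2 had -0.26 and -0.40, not called, although Nr1d2 was called lower without the first mutant library (-0.52). Of 4 globins of other cells, 3 were tested. Adgb was called higher at 3 to 38 reads per library (log2 fold change 2.53), a call lost without the second wildtype library (2.23, adjusted p = 0.273 in edgeR) or without the first mutant library (1.79, adjusted p = 0.484 in edgeR). Ngb had 4 to 42 reads and was not called (adjusted p = 0.219 in edgeR), although the exact test of edgeR, the replicate block and leaving out the first wildtype library each called it higher.

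**Figure D4:**
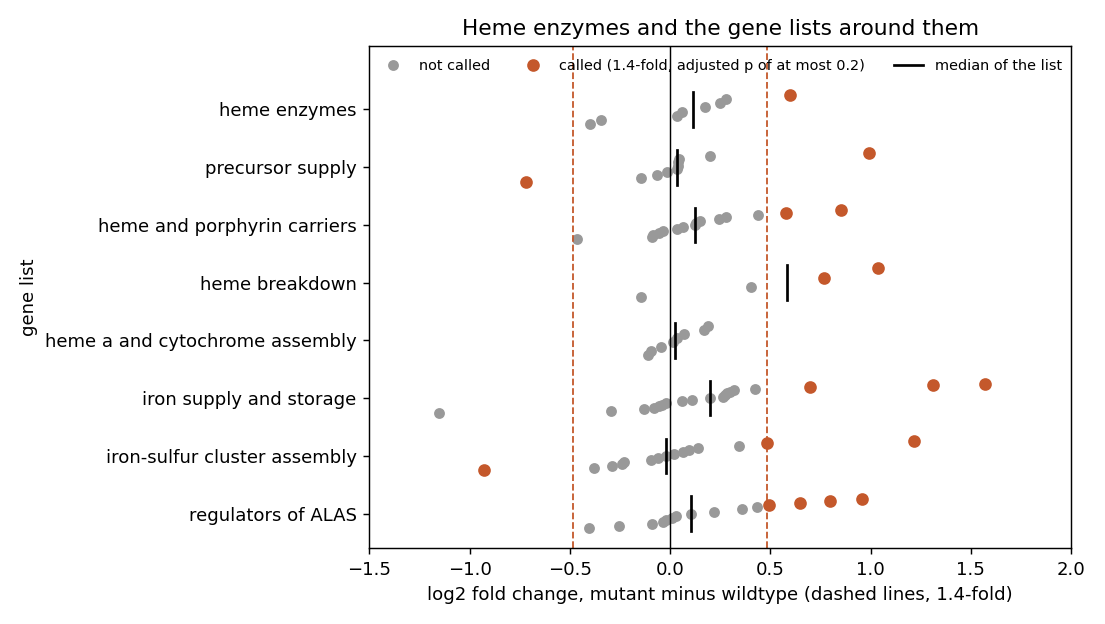
Log2 fold change, mutant minus wildtype, of every tested gene of the heme enzymes and of 7 lists around them; each point is a gene, coloured where it was called, black bars are list medians and dashed lines mark 1.4-fold. The medians lie between -0.02 and 0.20 except that of heme breakdown at 0.58, and Alas2 is the 1 called heme enzyme.

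The genes whose pattern over the 4 libraries was most like that of Alas1 and Alas2 were found by the distance between log2 levels, each centred on its own mean, among 13430 other genes with a mean of at least 1 CPM. The nearest to Alas1 were Haghl, Trappc12, Cntn6, Mrpl14 and Plcxd3, at distances of 0.0119 to 0.0299. Uros was 564th. The nearest to Alas2 were Mthfs, Rph3al, Nat14, Skap2 and H2-Q4, at distances of 0.0258 to 0.0787, and no gene of the erythroid list was among these 5. Hbb-y was 689th and Slc4a1 953rd. With 4 libraries many genes come close by their scale alone, so these ranks describe likeness in these libraries only.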

How the data were processed

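Reads had been aligned to mm10 with TopHat (2.7.2 in the submitters' notes) and counted per gene with HTSeq, and the authors deposited these whole-number counts and log2 normalized values, whose normalization and gene annotation release are not given in the sources used here. The submitters' notes also name DESeq and limma, without versions. The 4 column names of each table stand shifted by extra tabs and were read in their order. Summary rows (74% to 75% of entries, mostly reads without a unique place) were left out. Counts were filtered (filterByExpr, minimum count 10), scaled with TMM and tested in edgeR 4.0.16 (quasi-likelihood; R 4.3.3) for genotype alone, with Benjamini-Hochberg adjustment. Cuffdiff, the study's test, needs aligned reads. Calls needed a fold of 1.4 and an adjusted p of 0.2, the study's thresholds. DESeq2 1.42.0 and limma 3.58.1 served as alternatives, with other scalings, filters, thresholds, a replicate block and each library left out. The test was tested on simulated data.

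The enzymes and lists were chosen with earlier results of these data known. Of each list, up to 6 called genes with over 3 reads in a library were named by size of fold, or, with none called, the 2 with the highest mean CPM, and the 5 genes most like Alas1 and Alas2 (log2 of CPM plus 0.1). The labels do not say that replicates came from separate litters, so p-values measure the spread between pools. Errors cover counting and this spread, and PCR copies are not independent molecules. Older symbols were matched through RefSeq synonyms (4 list genes), and Ahsp was not matched. Coordinates come from GENCODE M21. Results for 2 further genes are not reported here.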

Additional observations from a re-analysis of the deposited data

How the results depend on the processing

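Over 17 alternatives Alas1 stayed lower, Alas2, Alad, Cpox and Fech stayed higher and Uros stayed lower. The sign changed in Urod and Ppox. Urod had a log2 fold change of -0.03 without wildtype replicate 2 and -0.065 without Nrf1 mutant replicate 2, within a range up to 0.12 with each library left out, and Ppox had -0.028 without wildtype replicate 2 within a range up to 0.16, and neither was called there. With no minimum fold, 2 enzymes were called lower and 2 higher, among them Alas1 (-0.40), Uros (-0.35) and Fech (0.25). When the fold itself was tested against 1.4 (glmTreat), the log2 fold change of Alas2, 0.60, was not called (adjusted p = 0.589), and 0 enzymes were called higher. On the deposited normalized values (limma) Alas2 had 0.40 and 0 enzymes were called higher. With each library left out in turn, Alas2 lay between 0.39 and 0.84, 0 to 1 enzymes were called higher and the median of the enzymes lay between 0.036 and 0.16. Over all alternatives the adjusted p of Alas2 lay between 0.00865 and 0.589. All 4 other scalings called the same number of enzymes and moved the median over all genes to between -0.019 and 0.040. Of 968 values for 57 genes of the lists, 92 lost their call and none changed sign. On the deposited values 1 of the 4 regulators, 1 of the 3 iron genes, 1 of the 2 breakdown genes, none of the 2 carriers and none of the 2 higher iron-sulfur genes was called. All genes called by each threshold differed by over 1.5 times in 3 settings. With glmTreat 1188 were higher and 743 lower, against 2024 and 1268, with no minimum fold 3211 and 3076, and on the deposited values 945 and 723. By its rule glmTreat asks for more than the main call, and dropping the minimum fold asks for less. Why fewer genes were called on the deposited values was not tested. The deviations of same-numbered libraries had a correlation of -0.00501 over genes. This shows no shared shift in their values, and it cannot tell whether the libraries were prepared in pairs. With the replicate block Alas2 had 0.61, Alas1 -0.40, and the number of enzymes called was the same. The 2 libraries a genotype limit the precision, and the standard errors of the enzymes ranged from 0.079 in Alas1 to 0.17 in Alas2 and Cpox.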
